A study of Mus musculus with 31 samples.

Results

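Skin of cpdm mice was compared between 10 and 6 weeks of age, with 3 arrays of each age, which are 6 of the 31 arrays of the series. The members were chosen by genotype and age as the labels give them. The 6 mice were females of the strain C57BL/KaLawRij-Sharpincpdm/Sharpincpdm RijSunJ, homozygous for the cpdm mutation of Sharpin, and each gave 1 array. The 4 wild type arrays of 6 weeks and the 3 of 10 weeks came from C57BL/6J females and served to show what the same 4 weeks of age did without the mutation. The control is of another substrain, so the effects of the mutation and of the substrain cannot be told apart. The 3 cpdm arrays of 8 weeks are shown as an intermediate age. The series measured skin of both genotypes at 5 ages, and its stated subject is angiogenesis in the dermatitis of these mice. No source used here names the body site of the skin.

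Sharpin is a subunit of the linear ubiquitin chain assembly complex, which attaches linear ubiquitin chains to components of the tumour necrosis factor and NF-kB pathways and restrains cell death. Mice without it develop a progressive dermatitis with a thickened epidermis, dying keratinocytes and infiltrating granulocytes. Keratinocytes under stress switch on a set of genes kept low in normal interfollicular epidermis, among them the small proline-rich proteins of the Sprr2 group and the late cornified envelope proteins of the Lce3 group, which are cross-linked into the cornified layer, and antimicrobial peptides such as beta-defensins.

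Signals are log2 values, so a difference of 1 is a doubling. Differences are given as 10 minus 6 weeks followed by ± and their standard error (SE) from limma, n being 3 arrays of each age unless stated. A gene was called changed at an adjusted p below 0.05 over all 19938 genes. Of these genes 232 (1.16%) were called between 10 and 6 weeks in cpdm skin. The 94 that rose make up 0.471% of all genes and the 138 that fell 0.692%. A change of at least 2-fold was seen in 81 of them, of which 29 rose and 52 fell. At an unadjusted p below 0.05, 5.94% of all genes were higher and 7.49% lower, the shares against which the unadjusted counts of lists below are to be read. The median difference of all genes was -0.01. The arrays of the 2 ages did not overlap, with all 3 arrays of 10 weeks above all 3 of 6 weeks, in 10.3% of all genes, and in the opposite direction in 13.4%.

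Across genes, arrays of 6 weeks correlated with each other at r = 0.992 to 0.9959, arrays of 10 weeks at 0.9923 to 0.9949, and arrays of different ages at 0.9792 to 0.991. Sharpin itself lay at 7.33 to 7.55 at 6 weeks and 7.35 to 7.58 at 10 weeks, below all 7 wild type arrays of those ages (7.98 to 8.22). Its difference between the ages was 0.06 ± 0.09 (adjusted p = 0.834). Krt14, the keratin of basal keratinocytes, lay at 12.66 to 12.96 in the 6 cpdm arrays. The number of called genes depended on single arrays: it was 63 without replicate 3 of 10 weeks, 67 without replicate 2 of 6 weeks, 142 without replicate 3 of 6 weeks, 152 without replicate 1 of 10 weeks, and 186 and 229 without the other two. Where such an omission ended the call of a gene whose rise or fall is given below, it is stated beside the gene. The closing list of differences between genotypes carries no such notes. Angptl7, named only there, kept its call between 10 and 6 weeks in 1 of 6 omissions (highest adjusted p = 0.224).

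The largest block of rising genes belonged to the Sprr2 cluster. Of 9 measured Sprr2 genes 6 rose, against 0.471% of all genes. They were Sprr2d, Sprr2e, Sprr2f, Sprr2g, Sprr2i and Sprr2j-ps, the last listed as a pseudogene by its name. Sprr2b, Sprr2h and Sprr2k were not called. Near-identical members can share signal on an array, so the 6 changes are not 6 independent observations. The family was picked after its values were seen. The start-proximal sequences of the group are shown because members that rose and members that did not lie side by side on chromosome 3 and have the same short motifs at nearly the same places. Each line gives the 250 bases before the RefSeq start on the + strand of GRCm38.p6, 5′ to 3′. In capitals are the AP-1 motif TGANTCA, searched on both strands, the octamer ATGCAAAT, searched on both strands and here always found as ATTTGCAT, and the TATA motif TATAAA, searched on the gene strand. The regions are chr3:92351893-92352142, chr3:92364937-92365186, chr3:92407741-92407990, chr3:92316455-92316704 and chr3:92432332-92432581, in the order of the lines.
Sprr2e: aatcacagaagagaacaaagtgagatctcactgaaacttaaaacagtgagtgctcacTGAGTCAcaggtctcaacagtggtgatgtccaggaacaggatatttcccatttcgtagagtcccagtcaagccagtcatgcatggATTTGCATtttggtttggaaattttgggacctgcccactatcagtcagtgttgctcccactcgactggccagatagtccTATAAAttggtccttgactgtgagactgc
Sprr2f: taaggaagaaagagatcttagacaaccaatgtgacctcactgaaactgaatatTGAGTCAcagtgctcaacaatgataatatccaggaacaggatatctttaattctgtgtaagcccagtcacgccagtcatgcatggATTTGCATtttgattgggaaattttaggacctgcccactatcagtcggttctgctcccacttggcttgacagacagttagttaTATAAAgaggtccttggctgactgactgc
Sprr2i: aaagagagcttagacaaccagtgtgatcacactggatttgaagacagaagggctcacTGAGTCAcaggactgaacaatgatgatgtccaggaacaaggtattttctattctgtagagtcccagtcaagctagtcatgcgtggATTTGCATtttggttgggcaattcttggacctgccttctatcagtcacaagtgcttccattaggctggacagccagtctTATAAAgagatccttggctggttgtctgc
Sprr2b: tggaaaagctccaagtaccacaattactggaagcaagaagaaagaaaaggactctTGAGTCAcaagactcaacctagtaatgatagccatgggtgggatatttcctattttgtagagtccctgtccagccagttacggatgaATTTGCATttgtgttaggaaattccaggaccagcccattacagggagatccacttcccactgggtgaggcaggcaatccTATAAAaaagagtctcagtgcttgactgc
Sprr2k: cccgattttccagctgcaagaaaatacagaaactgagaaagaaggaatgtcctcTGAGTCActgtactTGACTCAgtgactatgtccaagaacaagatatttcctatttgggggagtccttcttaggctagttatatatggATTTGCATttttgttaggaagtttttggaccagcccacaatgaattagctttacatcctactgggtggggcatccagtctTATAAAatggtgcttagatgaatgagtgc
Promoters of 7 Sprr2 genes were in the RefSeq table, those of Sprr2g and Sprr2j-ps were not. All 7 had the AP-1 motif, the octamer and a TATA motif starting 29 bases before the start of the gene. Over all 32851 promoters of the table, windows of the same length had the AP-1 motif in 6.75%, the TATA motif in 7.59% and the octamer in 1.6%. The motifs did not separate the genes that rose from the others, since Sprr2b, Sprr2h and Sprr2k have them too, and Sprr2k has the AP-1 motif at 2 places. Position by position, without gaps, the window of Sprr2e was 88.0% identical to that of Sprr2d, 70.8% to that of Sprr2i and 36.4% to that of Sprr2k. None of the 3 motifs was found in the same windows of the 5 Lce3 genes, which says only that these letters are not there.

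Sprr2e signal was 5.79, 5.76 and 6.29 in the arrays of 6 weeks and 7.89, 7.33 and 8.29 in those of 10 weeks. All 3 older arrays thus lay above all 3 younger ones, and the rise was 1.89 ± 0.20, or 3.71-fold (adjusted p = 6.99e-06). Sprr2f lay at 4.63, 4.57 and 4.73 and then at 6.07, 5.80 and 6.67, a rise of 1.54 ± 0.15 (adjusted p = 3.14e-06). Sprr2g had the largest difference of the group, 2.03 ± 0.21 or 4.08-fold (adjusted p = 5.07e-06), with 5.55, 4.79 and 5.76 at 6 weeks against 7.34, 6.86 and 7.99. The arrays of the 2 ages did not overlap in any of the 6 Sprr2 genes that rose. Sprr2j-ps rose by 1.76 ± 0.23, Sprr2i by 1.51 ± 0.23 and Sprr2d by 1.45 ± 0.23 (adjusted p = 0.000115, 0.00072 and 0.000834). Sprr2b went from 4.76, 5.12 and 4.98 to 5.41, 4.86 and 4.75, with overlapping arrays and a difference of 0.05 ± 0.30 (adjusted p = 0.962). Sprr2k differed by 0.18 ± 0.13 (adjusted p = 0.587). Sprr2h, at 1.37 ± 0.51, had arrays that did not overlap but missed the threshold (adjusted p = 0.215). In wild type skin Sprr2e lay at 3.77 to 4.16 at 6 weeks and 3.79 to 4.25 at 10 weeks.

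**Figure D1:**
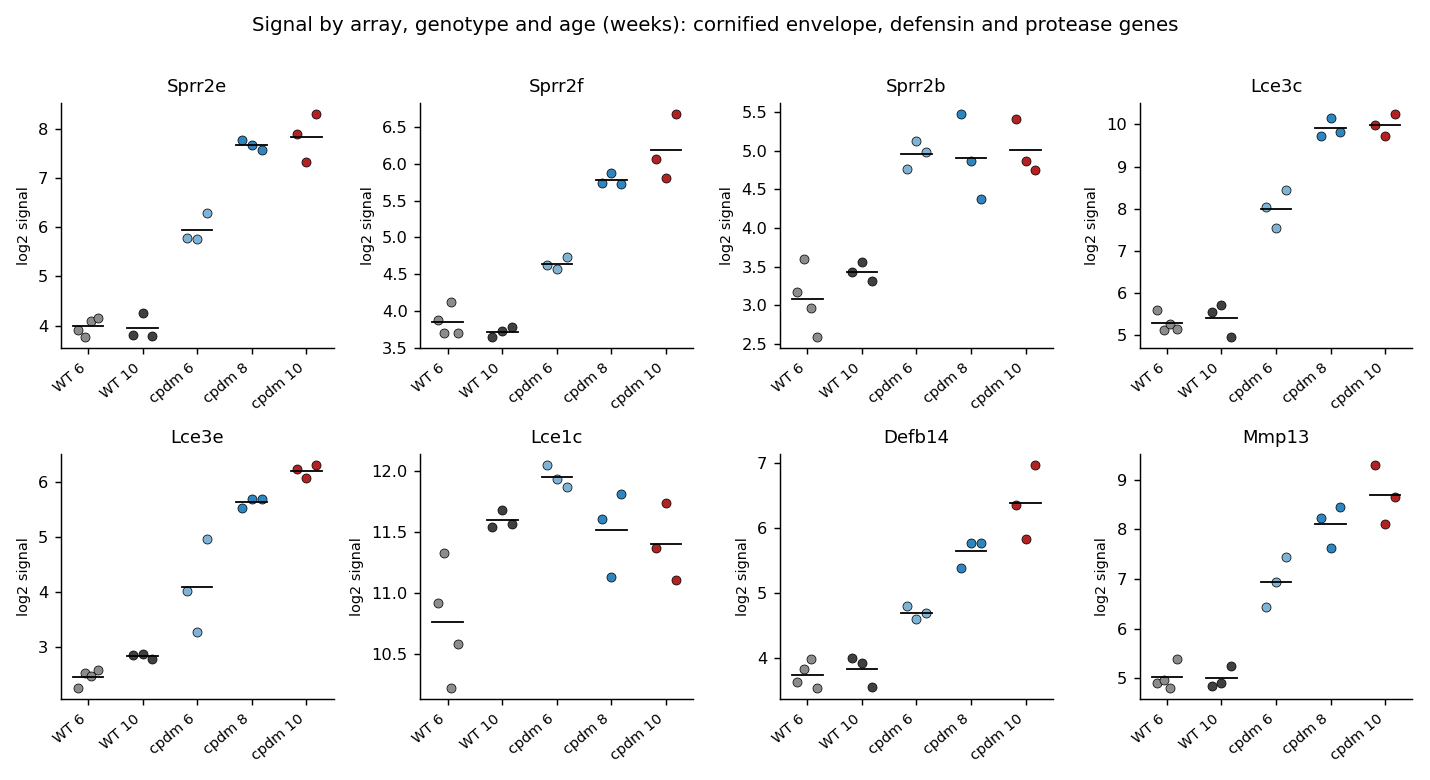
Log2 signal of 8 genes in every array of wild type (WT) and cpdm skin by age in weeks; each point is an array and each line the group mean. Sprr2e, Sprr2f, Lce3c, Lce3e, Defb14 and Mmp13 are higher in all 3 cpdm arrays of 10 weeks than in all 3 of 6 weeks, while Sprr2b overlaps and Lce1c is lower in all 3 without passing the threshold.

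The Lce genes, which lie on the same chromosome, moved by subgroup. Lce3 genes have been studied mainly for their induction by barrier damage, and Lce1 genes for their part in the normal cornified layer. Lce3c went from 8.04, 7.54 and 8.44 to 9.98, 9.73 and 10.24, a rise of 1.98 ± 0.24 or 3.94-fold (adjusted p = 7.52e-05). Lce3e went from 4.02, 3.28 and 4.96 to 6.24, 6.07 and 6.30, the largest called rise of any gene, 2.12 ± 0.27 (adjusted p = 0.000105). Lce3a rose by 1.48 ± 0.21 (adjusted p = 0.000229). The other 2 measured members, Lce3b at 0.64 ± 0.19 and Lce3f at 0.66 ± 0.17, missed the threshold (adjusted p = 0.0927 and 0.0574). In all 5 Lce3 genes the arrays of 10 weeks lay above those of 6 weeks, against 10.3% of all genes. Of 13 measured Lce1 genes 0 were called by limma, 1 had an unadjusted p below 0.05, and their differences ran from -0.75 to 0.27 with a median of -0.38. Lce1c, for example, went from 12.05, 11.94 and 11.87 to 11.37, 11.74 and 11.11, a difference of -0.55 ± 0.29 (adjusted p = 0.43). These families were also picked after their values were seen.

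Of the list of keratinocyte stress and hyperplasia genes, 26 of 31 were measured. Of these 7 rose and 1 fell, against 0.471% and 0.692% of all genes, and the median was 0.61 against -0.01 for all genes. The risers were Sprr2d, Sprr2e, Lce3c, Defb14, Fosl1, Hbegf and S100a9. Leaving out single arrays gave between 5 and 9 risers. The keratins that define hyperplastic epidermis were high at both ages: Krt6b lay at 12.03, 12.07 and 12.43 and then at 12.39, 12.52 and 12.62, a difference of 0.33 ± 0.46 (adjusted p = 0.83), against 5.67 to 7.52 in the 7 wild type arrays. Krt16 differed by 0.43 ± 0.62 (adjusted p = 0.837). Stfa3, a cysteine protease inhibitor gene of the stefin A family, differed by 0.14 ± 0.43 (adjusted p = 0.937). S100a9, which with S100a8 forms calprotectin, rose by 1.49 ± 0.30 (adjusted p = 0.00876), but its arrays overlapped, with 8.96 as the highest of 6 weeks and 8.95 as the lowest of 10 weeks. Its call ended without replicate 1 or 3 of 10 weeks or replicate 1 or 2 of 6 weeks (adjusted p = 0.0531, 0.113, 0.0659 and 0.0536). S100a8 differed by 1.44 ± 0.37 (adjusted p = 0.0562). The faller was Gsdmc2, a gasdermin gene, at -1.39 ± 0.30 (adjusted p = 0.0164), a call lost without replicate 2 of 10 weeks or replicate 2 or 3 of 6 weeks (0.079, 0.152 and 0.108).

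Among antimicrobial and oxidant genes, picked after their values were seen, 3 of 39 beta-defensin genes and 2 of 4 Duox and Duoxa genes rose, against 0.471% of all genes. Defb14, a beta-defensin, went from 4.79, 4.59 and 4.68 to 6.35, 5.82 and 6.96, a rise of 1.69 ± 0.19 or 3.23-fold (adjusted p = 1.26e-05). Defb4, another beta-defensin, went from 3.52, 3.12 and 3.48 to 5.82, 3.94 and 5.04 and rose by 1.56 ± 0.25 (adjusted p = 0.0012), its 3 arrays of 10 weeks being far apart from each other. The third called member, Defb1, rose by 0.70 ± 0.17 (adjusted p = 0.0335), and its call was lost without replicate 1 or 3 of 10 weeks or replicate 2 or 3 of 6 weeks (0.0635, 0.238, 0.263 and 0.116). Duox1, a membrane oxidase that makes hydrogen peroxide, went from 7.23, 6.87 and 7.21 to 8.48, 8.48 and 8.92, a rise of 1.52 ± 0.22 (adjusted p = 0.000311). Its maturation factor Duoxa1 rose by 0.72 ± 0.13 (adjusted p = 0.00332), with no overlap between the ages. Duox2 and Duoxa2, the paralogous pair, differed by -0.18 ± 0.16 and -0.27 ± 0.14 (adjusted p = 0.704 and 0.425).

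Lipid mediator and retinoid genes were among the risers. Pla2g4e, a cytosolic phospholipase A2, went from 8.98, 8.60 and 9.02 to 9.76, 9.69 and 10.11, a rise of 0.99 ± 0.15 (adjusted p = 0.000511), and its neighbour in the family, Pla2g4d, rose by 0.71 ± 0.10 (adjusted p = 0.000137). Pla2g4f differed by 0.04 ± 0.18 (adjusted p = 0.955). Ptgs2, the inducible cyclooxygenase that acts on the arachidonic acid such enzymes free, went from 5.83, 6.45 and 6.44 to 7.86, 6.64 and 7.89. Its rise of 1.22 ± 0.30 (adjusted p = 0.0396) held in only 1 of the 6 omissions, that of replicate 2 of 10 weeks, and was otherwise lost at adjusted p between 0.0698 and 0.256. Lrat, which esterifies retinol for storage, went from 5.56, 5.34 and 5.62 to 7.72, 6.53 and 7.28 and rose by 1.67 ± 0.30 (adjusted p = 0.00375). Faah, which degrades anandamide and related fatty acid amides, fell from 8.95, 9.06 and 8.94 to 8.06, 8.23 and 7.92, by 0.91 ± 0.13 on the log2 scale (adjusted p = 0.000375).

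Ligands of the ErbB receptors, which drive keratinocyte growth and migration, included 3 that rose of 10 measured, against 0.471% of all genes. Nrg1, a ligand of ErbB3 and ErbB4, went from 5.50, 5.36 and 5.49 to 6.45, 6.17 and 6.71, a rise of 0.99 ± 0.13 (adjusted p = 0.000115) with no overlap. Hbegf and Epgn, ligands of the EGF receptor, rose by 1.15 ± 0.25 (adjusted p = 0.0182) and 1.50 ± 0.37 (adjusted p = 0.0432). In neither did the ages overlap, yet both calls were fragile: Hbegf lost its call without replicate 1 or 3 of 10 weeks or replicate 1 or 2 of 6 weeks (0.0645, 0.16, 0.0561 and 0.135), and Epgn kept its call only without replicate 1 of 10 weeks (0.0408), with a highest value of 0.232. The remaining 7 of 10 measured ligand genes were not called, for instance Tgfa at 0.53 ± 0.27 (adjusted p = 0.389), Ereg at 0.17 ± 0.19 (adjusted p = 0.781) and Btc at -0.34 ± 0.26 (adjusted p = 0.639). Fosl1, an AP-1 subunit induced by such growth factors, went from 5.85, 5.64 and 5.70 to 6.63, 6.83 and 7.13, a rise of 1.13 ± 0.15 (adjusted p = 0.000144). Of the list of 17 measured immediate early and heat shock genes 0 were called by limma (none higher and 2 lower at an unadjusted p below 0.05). In 7 of the 17 all arrays of 10 weeks lay above those of 6 weeks, against 10.3% of all genes. In 1 they lay below, against 13.4%. Fos differed by 0.77 ± 0.56 (adjusted p = 0.6) and Junb by 0.29 ± 0.20 (adjusted p = 0.554).

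Of 21 matrix proteases and inhibitors 2 rose, and of 31 fibroblast and matrix genes 1 rose, against 0.471% of all genes. None of either list fell. RNA of whole skin was measured, which does not place these changes in a layer or cell type. Mmp13, a collagenase, went from 6.44, 6.93 and 7.45 to 9.29, 8.11 and 8.65, a rise of 1.74 ± 0.25 or 3.35-fold (adjusted p = 0.000273). Mmp10, stromelysin 2, rose by 0.84 ± 0.17 (adjusted p = 0.00989), a call lost without replicate 1 or 3 of 10 weeks or replicate 1 or 2 of 6 weeks (0.0594, 0.0633, 0.0625 and 0.0759). Col12a1, a collagen that decorates fibrils in tissue under mechanical load, went from 8.61, 8.65 and 9.23 to 10.76, 9.96 and 9.96 and rose by 1.40 ± 0.19 (adjusted p = 0.000137). Tnn, a tenascin, rose by 0.92 ± 0.16 (adjusted p = 0.00206), and Pmepa1, a TGF-beta target that dampens that pathway, by 1.13 ± 0.20 (adjusted p = 0.00252). Prss35, a protease-like gene, rose by 1.44 ± 0.24 (adjusted p = 0.00159). Lama1, a laminin chain, fell by 1.11 ± 0.19 on the log2 scale (adjusted p = 0.00181). Mmp9 at 1.21 ± 0.34 and Tnc at 0.71 ± 0.33 were not called (adjusted p = 0.0857 and 0.338).

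Immunoglobulin transcripts, the products of B cells and plasma cells, rose in the older skin. Jchain, the joining chain of polymeric immunoglobulin, lay at 3.88, 4.08 and 4.18 at 6 weeks and at 5.48, 6.71 and 6.15 at 10 weeks, a rise of 2.07 ± 0.36 or 4.19-fold (adjusted p = 0.00232). The 7 wild type arrays lay at 3.62 to 4.12, close to the 6-week cpdm arrays. Of 8 measured kappa light chain variable genes, which can share signal, 4 rose, against 0.471% of all genes. Igkv9-120 went from 4.14, 4.11 and 3.80 to 5.89, 5.76 and 5.93, a rise of 1.84 ± 0.19 (adjusted p = 5.07e-06). Of the 18 measured genes of the B and plasma cell list Jchain was the only one called, and the median was 0.26 against -0.01 for all genes. The B cell genes Ms4a1 and Cd79b were highest at 8 weeks: Ms4a1 lay at 3.99 to 4.45 at 6 weeks, 5.24 to 6.67 at 8 weeks and 4.65 to 5.75 at 10 weeks, and its difference between 10 and 6 weeks was 0.90 ± 0.25 (adjusted p = 0.0778). In whole skin, more cells of a type and more RNA per cell cannot be told apart.

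Other leukocyte lists gave few calls, where 1.16% of all genes were called. The neutrophil list of 18 measured genes had a median of 0.39 and 1 called gene, S100a9, which keratinocytes also express. At an unadjusted p below 0.05 by limma, 8 of the 18 were higher, against 5.94% of all genes, and 0 lower. Differences above 0 were seen in 16 of the 18, while the receptor gene Cxcr2 differed by -0.06 ± 0.22 (adjusted p = 0.948). Limma called 0 of 27 macrophage genes (median -0.16, 2 higher and none lower at an unadjusted p below 0.05), 0 of 23 dendritic and Langerhans cell genes (4 lower at an unadjusted p below 0.05) and 0 of 24 T cell and NK cell genes (4 higher and 4 lower). Among 34 chemokine and receptor genes 1 fell, Ccr4, a receptor of skin-homing T cells, which went from 6.50, 6.96 and 6.90 to 5.78, 5.40 and 5.54 and fell by 1.21 ± 0.21 on the log2 scale (adjusted p = 0.00252). Ccl2 at -1.14 and Ccl12 at -1.62, monocyte attractants, missed the threshold (adjusted p = 0.0539 and 0.089). Il13ra2, the decoy receptor for interleukin 13, went from 6.64, 7.54 and 7.31 to 5.71, 6.08 and 5.94 and fell by 1.25 ± 0.24 on the log2 scale (adjusted p = 0.00698), lost without replicate 2 of 6 weeks (0.0963). Il12rb2, a chain of the interleukin 12 receptor, fell by 1.86 ± 0.36 (adjusted p = 0.00735), lost without replicate 2 of 6 weeks or replicate 3 of 10 weeks (0.102 and 0.0706).

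In a list of 22 targets and regulators of NF-kB signalling the median was -0.19. At an unadjusted p below 0.05 by limma, 1 was higher and 8 lower, against 5.94% and 7.49% of all genes. After adjustment 1 was called, against 1.16% of all genes. This was Tnip3, which restrains the pathway, at -1.19 ± 0.29 (adjusted p = 0.0365), with overlapping arrays and a call lost in 4 of 6 omissions, namely those of replicates 1 and 3 of 10 weeks and 2 and 3 of 6 weeks (0.121, 0.214, 0.272 and 0.165). Card14, a keratinocyte scaffold that activates NF-kB, went from 8.10, 8.45 and 8.24 to 7.49, 7.40 and 7.49 and fell by 0.80 ± 0.13 on the log2 scale (adjusted p = 0.0012) kept in every omission. The other subunits of the ubiquitin complex, Rnf31 at -0.24 ± 0.09 and Rbck1 at -0.05 ± 0.08, were not called (adjusted p = 0.244 and 0.835). Of 27 interferon response genes 0 were called by limma (2 lower at an unadjusted p below 0.05), with a median of -0.30 and differences from -0.56 (Psmb9) to 0.08 (Oasl1). Il1b, Il6, Tnf and Il17a differed by 0.66, -0.15, -0.15 and 0.06, none called (adjusted p = 0.522, 0.763, 0.787 and 0.847).

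Genes of the Skint group were among those that fell. Skint genes code for immunoglobulin-like membrane proteins of keratinocytes and thymus, of which Skint1 is known to select epidermal gamma delta T cells. Of 7 measured members 5 fell, against 0.692% of all genes. Skint9 went from 8.33, 9.12 and 8.62 to 6.52, 7.16 and 6.17 and fell by 2.07 ± 0.33 on the log2 scale, or 4.21-fold (adjusted p = 0.000988). Skint10 and Skint7 fell by 1.98 ± 0.32 and 1.92 ± 0.32 (adjusted p = 0.00107 and 0.00159). In all 7 genes the arrays of 10 weeks lay below those of 6 weeks, against 13.4% of all genes. The smallest difference was that of Skint3 at -0.48 ± 0.21 (adjusted p = 0.296). Skint2 fell by 1.25 ± 0.26 and Skint4 fell by 1.03 ± 0.23 (adjusted p = 0.0114 and 0.0211). Their calls ended without replicate 2 of 6 weeks (0.143 for each) or replicate 3 of 10 weeks (0.144 and 0.196), and that of Skint4 also without replicate 1 of 6 weeks (0.0655). The group was picked after its values were seen, and its members can share signal.

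Of 18 measured epidermal keratin genes, also picked after their values were seen, 5 fell, against 0.692% of all genes. Krt15, a keratin of basal and bulge keratinocytes, went from 10.17, 10.34 and 10.03 to 9.13, 9.11 and 8.52 and fell by 1.26 ± 0.19 on the log2 scale or 2.39-fold (adjusted p = 0.000597). All 7 wild type arrays of those ages lay between 11.31 and 11.87. Krt24, a suprabasal keratin, went from 7.80, 7.97 and 7.77 to 5.58, 7.15 and 5.75 and fell by 1.69 ± 0.30 (adjusted p = 0.00361), lost without replicate 3 of 10 weeks (0.0556). Krt10 and Krt77, keratins of the differentiating layers, fell by 0.93 ± 0.24 and 1.53 ± 0.37 (adjusted p = 0.0495 and 0.0397), calls that held only without replicate 2 of 10 weeks (0.00452 and 0.00373) and reached 0.328 and 0.284 in other omissions. Krt78 fell by 1.16 ± 0.28 (adjusted p = 0.038), lost without replicate 1 or 3 of 10 weeks or replicate 1 or 2 of 6 weeks (0.102, 0.225, 0.132 and 0.199). Krt1, the partner of Krt10, differed by -0.16 ± 0.29 (adjusted p = 0.882). Of 26 measured epidermal differentiation genes the calls were Krt10 and Krt77 and, upwards, Rptn, which codes for the cornified envelope protein repetin, at 0.95 ± 0.19 (adjusted p = 0.00757, lost without replicate 3 of 10 weeks or replicate 2 of 6 weeks at 0.0587 and 0.112). Loricrin (Lor) and involucrin (Ivl) differed by -0.76 ± 0.29 and -0.07 ± 0.29 (adjusted p = 0.233 and 0.95).

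**Figure D2:**
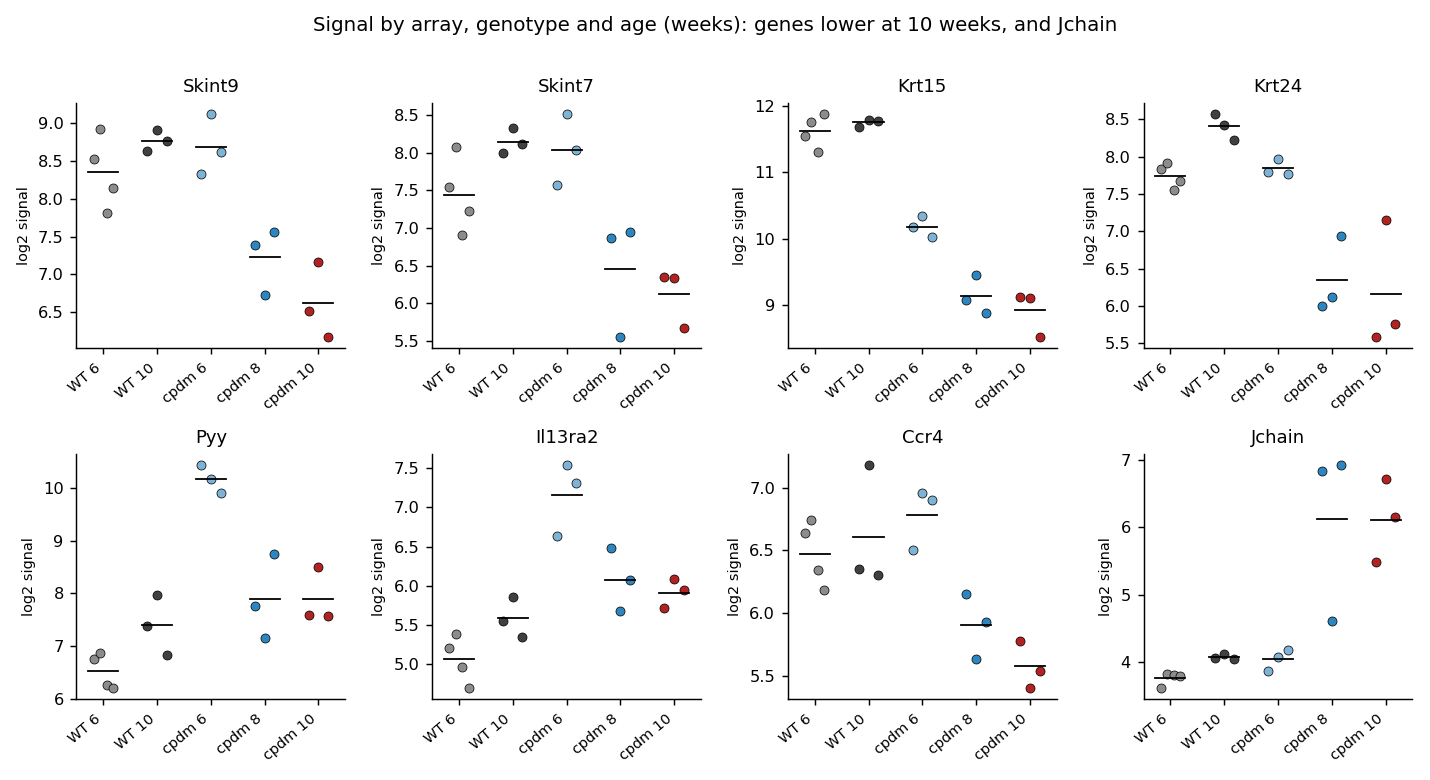
Log2 signal of 8 genes in every array of wild type (WT) and cpdm skin by age in weeks; points are arrays and lines group means. In Skint9, Skint7, Krt15, Krt24, Pyy, Il13ra2 and Ccr4 all 3 cpdm arrays of 10 weeks are below all 3 of 6 weeks, and in Jchain all 3 are above.

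Some falls brought cpdm skin nearer to wild type and others took it further away. Pyy, the gut and islet hormone peptide YY, lay at 10.44, 10.17 and 9.92 at 6 weeks and 7.59, 8.50 and 7.57 at 10 weeks and fell by 2.29 ± 0.32 on the log2 scale or 4.89-fold (adjusted p = 0.000229), toward the wild type range of 6.20 to 7.97. Clca1, a secreted metalloprotease known from mucous cells, went from 6.51, 7.40 and 7.20 to 5.80, 5.91 and 5.81 and fell by 1.2 ± 0.19 (adjusted p = 0.00072), into the wild type range of 5.17 to 6.16. Serpinb6e, a serine protease inhibitor gene, went from 6.85, 6.77 and 6.33 to 4.45, 4.82 and 4.48 and fell by 2.07 ± 0.36 (adjusted p = 0.00251), away from the wild type range of 6.73 to 8.49. Krt15 likewise started below all 7 wild type arrays and fell from there. Gadl1, a decarboxylase gene, fell by 1.86 ± 0.27 (adjusted p = 0.000317), and Bbox1, the last enzyme of carnitine synthesis, fell by 1.21 ± 0.19 (adjusted p = 0.000872).

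Of the skeletal muscle list 12 genes fell, and 1 of them, Myh4, had the largest fall of all 19938 genes. Skin samples of mice carry the thin muscle under the dermis, the panniculus carnosus. Myh4, the myosin of the fastest fibres, went from 10.77, 11.21 and 10.98 to 7.93, 8.73 and 8.46 and fell by 2.61 ± 0.35 on the log2 scale or 6.12-fold (adjusted p = 0.000115). Pvalb, the calcium buffer of fast fibres, went from 10.36, 10.83 and 10.51 to 8.36, 8.54 and 8.46 and fell by 2.11 ± 0.27 (adjusted p = 0.000106). Actn3, an actinin of fast fibres, fell by 1.98 ± 0.29 and Mybpc2, the fast myosin-binding protein, by 1.80 ± 0.27 (adjusted p = 0.000375 and 0.000386). Of 29 measured muscle genes 12 fell, against 0.692% of all genes, 0 rose, and the median was -0.87. The others that fell were Mstn, Casq1, Pygm, Myoz1, Eno3, Myh1, Ckm and Atp2a1. Myoz1, Ckm and Atp2a1 kept their call only without replicate 2 of 10 weeks (highest adjusted p = 0.135, 0.143 and 0.119), and Eno3 lost it without replicate 1 of 10 weeks or replicate 2 or 3 of 6 weeks (0.0856, 0.0706 and 0.0512). Omitting single arrays left between 5 genes (without replicate 2 of 6 weeks) and 12 (without replicate 2 of 10 weeks), with 6, 7 and 7 without replicate 1 or 3 of 10 weeks or replicate 3 of 6 weeks. Myh4, Pvalb, Actn3, Mybpc2 and Casq1 were kept in each omission, and Mstn, which restrains muscle growth, fell by 2.29 ± 0.43 (adjusted p = 0.00521) except without replicate 2 of 6 weeks (0.0599).

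Differences varied widely among the muscle genes. Myh1, the myosin of an intermediate fast fibre, fell by 1.0 ± 0.22 (adjusted p = 0.0231, kept only without replicate 2 of 10 weeks and at most 0.125). Pygm, the muscle glycogen phosphorylase, fell by 1.25 ± 0.25 (adjusted p = 0.00984, lost without replicate 1 or 3 of 10 weeks or replicate 2 of 6 weeks at 0.0635, 0.058 and 0.0817). Skeletal actin, Acta1, differed by -0.44 ± 0.14 (adjusted p = 0.138) and titin, Ttn, by -0.66 ± 0.26 (adjusted p = 0.236). The fast isoforms Tnnc2, Tnni2, Tnnt3 and Mylpf differed by -0.90, -0.75, -0.65 and -0.90 and were not called (adjusted p = 0.0778, 0.136, 0.0936 and 0.0804). Differences above 0 were seen in 3 of the 29 genes, none of them called and all named for that reason after their values were seen: Myh2, of the oxidative fast fibres, at 0.19 ± 0.33 (adjusted p = 0.869), Tnnt1, the slow troponin T, at 0.02 ± 0.18 (adjusted p = 0.977), and Myh7, the slow myosin, at 0.71 ± 0.19 (adjusted p = 0.0593). Myoglobin, Mb, which oxidative fibres carry, differed by -0.25 ± 0.34 (adjusted p = 0.824). Myh7 lay at 5.76, 5.81 and 5.57 and then at 5.94, 6.81 and 6.53, without overlap. Wild type skin did not share the fall: the same 29 genes had a median of 0.44 there between 6 and 10 weeks, with 0 called (5 higher and none lower at an unadjusted p below 0.05, against 12.1% and 8.6% of all genes). How much muscle each sample held was not recorded in the sources used here, and the part of that amount in these values was not tested.

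**Figure D3:**
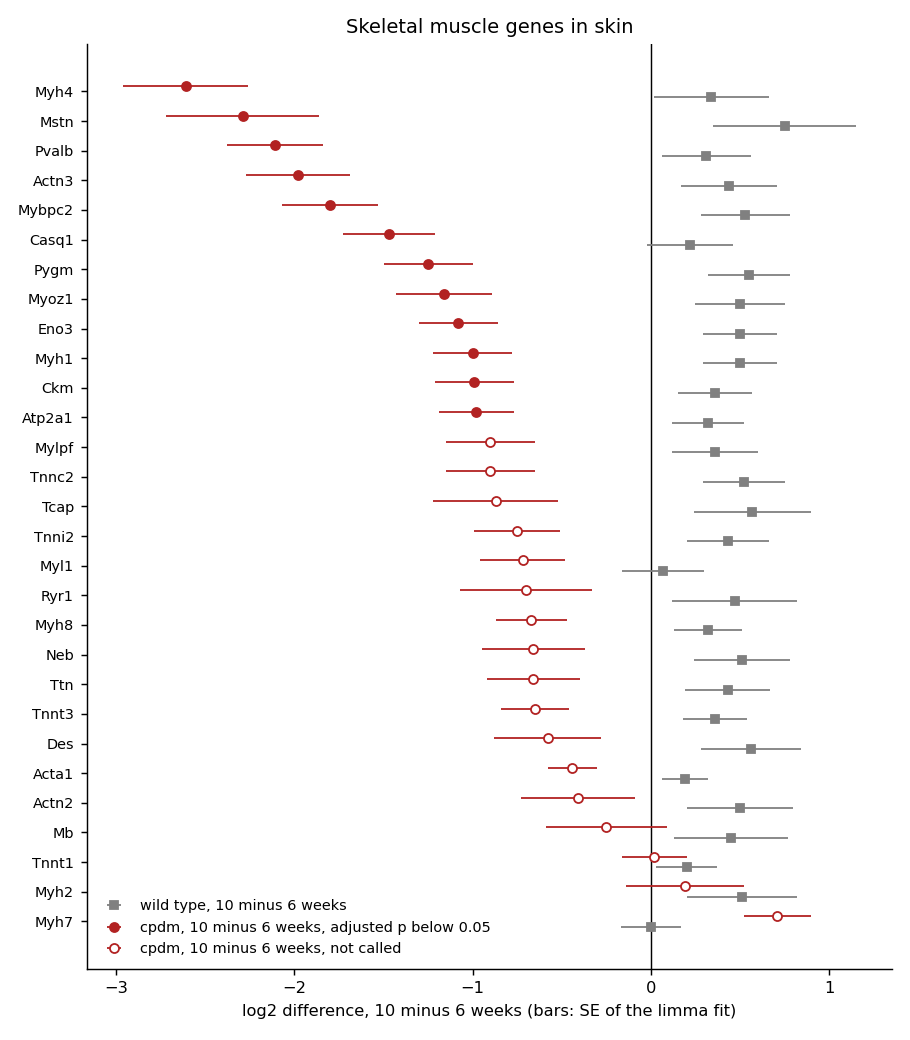
Log2 difference between 10 and 6 weeks of the 29 muscle genes in cpdm skin (circles, filled where called) and wild type skin (squares), with bars of 1 SE from limma. The 12 called genes are on the left of 0, from Myh4 at -2.61 to Atp2a1 at -0.98, and the wild type squares are at or right of 0.

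Hair and pigment signal also moved between the 2 ages, with a large spread. The mean signal of 30 measured hair keratins and keratin-associated proteins was 7.37, 6.01 and 5.94 at 6 weeks and 9.60, 8.84 and 8.49 at 10 weeks. In all 30 genes the ages did not overlap, all being higher at 10 weeks, against 10.3% of all genes. Their median difference was 2.53. Krt25, of the inner root sheath, had the largest, 4.09 ± 1.15 (adjusted p = 0.0808). With the spread taken over all 31 arrays limma called 0 of the 30, 27 having an unadjusted p below 0.05, whereas a fit of only the arrays compared called 25. The mean of the 15 melanocyte genes was 6.51, 6.12 and 6.13 and then 7.42, 6.73 and 6.64. Rab27a, a melanosome transport gene that other cells share, was the only one called of that list and fell by 0.56 ± 0.13 (adjusted p = 0.0361, kept only without replicate 2 of 10 weeks and at most 0.157). In wild type skin the hair list moved in the opposite direction, from 9.95, 7.73, 10.69 and 9.59 at 6 weeks to 5.83, 5.44 and 5.66 at 10 weeks. The mean of the muscle list in the same wild type arrays was 10.57, 10.80, 9.76 and 10.14 and then 10.62, 10.80 and 10.75. Mean hair and muscle signal thus moved in opposite directions within each genotype, although no muscle gene was called in wild type. The part of hair state in the muscle contrast between genotypes was not tested.

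Hair signal was higher in each of the older cpdm arrays, and its part in the other changes was not tested. Its values among the 8-week arrays are set beside those of other groups here. Replicates 1, 2 and 3 of 8 weeks had hair list means of 7.07, 8.81 and 5.66, against 5.94 to 7.37 at 6 weeks and 8.49 to 9.60 at 10 weeks. The mean of the 9 Sprr2 genes was 6.60, 6.62 and 6.39 in the same order, against 5.24 to 5.75 at 6 weeks and 6.30 to 7.09 at 10 weeks. Muscle signal was 9.28, 9.09 and 9.55 in them, against 9.90 to 10.02 at 6 weeks and 8.75 to 9.29 at 10 weeks.

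**Figure D4:**
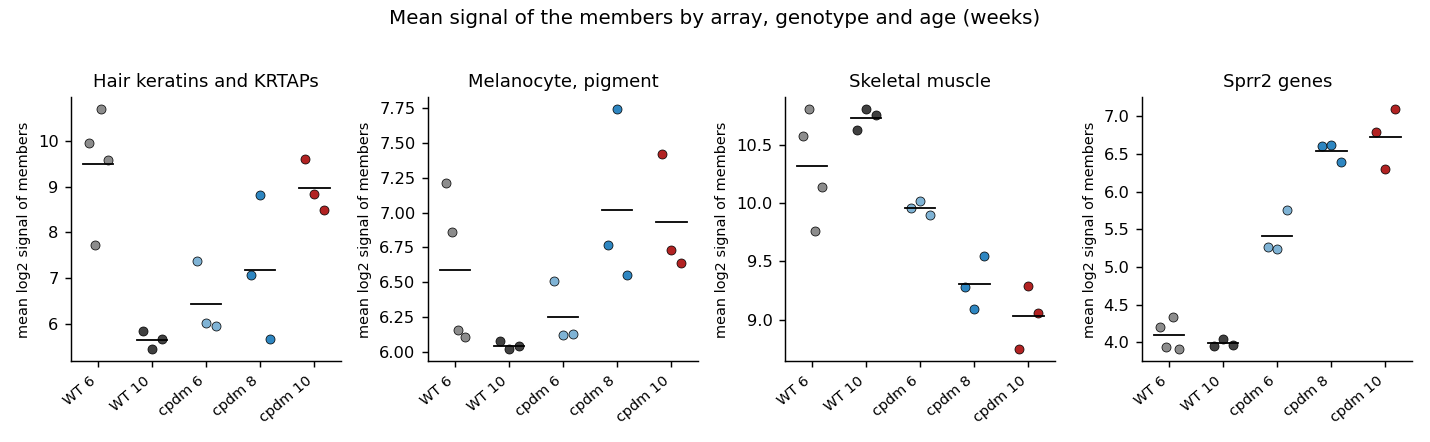
Mean log2 signal of the members of 4 gene groups in every array of wild type (WT) and cpdm skin by age in weeks; points are arrays and lines group means. Among the cpdm arrays of 8 weeks, hair signal ranges from 5.66 to 8.81 and Sprr2 signal from 6.39 to 6.62. The part of hair in the other changes was not tested.

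The vascular lists, which concern the stated subject of the series, held no called gene, while 1.16% of all genes were called. At so low a share a short list can hold none. Of 26 blood endothelial genes limma called 0 (none higher and 3 lower at an unadjusted p below 0.05), with a median of -0.12 and a range from -0.39 (Mmrn2) to 0.17 (Emcn). Pecam1, the adhesion molecule CD31 used to stain vessels, went from 8.05, 8.20 and 8.32 to 7.85, 7.98 and 8.03, a difference of -0.24 ± 0.16 (adjusted p = 0.542). Of 23 angiogenic factor genes 0 were called (2 higher and 2 lower at an unadjusted p below 0.05). Vegfa, the main endothelial growth factor, lay at 8.95, 9.18 and 9.14 and then at 9.01, 8.99 and 9.36, a difference of 0.03 ± 0.21 (adjusted p = 0.969), and its receptor Kdr differed by -0.03 ± 0.22 (adjusted p = 0.968). Vegfc, a lymphatic growth factor kept in the lymphatic list, differed by -0.49 ± 0.16 (adjusted p = 0.132), Angpt1 by -0.48 and Jag1 by 0.48 (adjusted p = 0.289 and 0.189). Of 17 angiogenesis inhibitor genes (2 higher and 2 lower unadjusted) and 12 endothelial adhesion genes (2 lower unadjusted) 0 were called, Cxcl10 having the lowest value, -0.95 (adjusted p = 0.136), and Icam1 differing by -0.38 (adjusted p = 0.262).

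Other lists held few or no called genes, against 1.16% of all genes. Limma called 0 of 29 proliferation genes, none even at an unadjusted p below 0.05, and their median was 0.00. It called 0 of 25 hypoxia and glycolysis genes (1 higher and 2 lower unadjusted), 0 of 19 interleukin 1 family genes (1 lower unadjusted), 0 of 15 clock genes (1 higher unadjusted) and 0 of 26 genes of oxidative phosphorylation (7 lower unadjusted, median -0.16). Of 23 sebaceous gland genes 1 fell, Elovl6, a fatty acid elongase, by 0.78 ± 0.17 on the log2 scale (adjusted p = 0.017), lost in 4 omissions, those of replicates 1 and 3 of 10 weeks and 2 and 3 of 6 weeks (0.088, 0.0911, 0.168 and 0.0681). The median of that list was -0.43, and 13 of its 23 genes had all arrays of 10 weeks below those of 6 weeks, against 13.4% of all genes. Of 19 adipocyte genes 0 were called (2 lower unadjusted), with a median of -0.20.

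**Figure D5:**
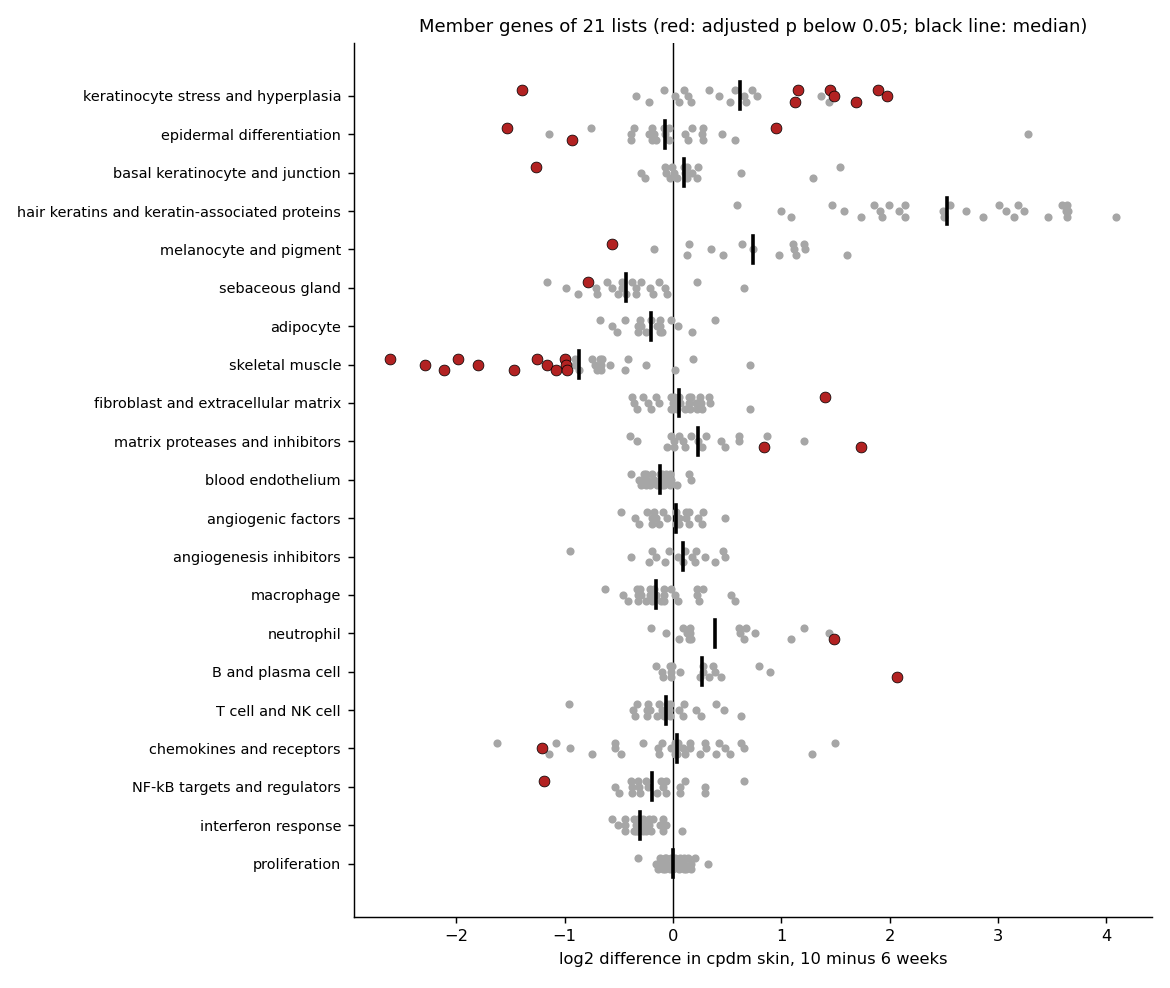
Log2 difference between 10 and 6 weeks in cpdm skin of each measured member of 21 lists; red points are genes with an adjusted p below 0.05 and black lines medians. Called genes gather on the right in the keratinocyte stress list (7) and on the left in the skeletal muscle list (12), and the vascular lists lie within -0.95 and 0.48 with no called gene.

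The arrays of 8 weeks give values at an age in between. Against 6 weeks, 65 genes (0.326%) were called at 8 weeks, 29 higher and 36 lower, and between 8 and 10 weeks only 4 (0.0201%), of which Clec2e and Gm10640 were higher at 10 weeks and Igkv9-120 and Prss34 lower. The latter count was 0 without replicate 1 of either age and 1 without replicate 3 of either age. The count at 8 weeks was 18 without replicate 2 of 6 weeks, and 34 and 40 without replicates 1 and 2 of 8 weeks. These 3 comparisons share arrays, so their values are set side by side only. Genes that rose between 6 and 10 weeks had a median difference of 0.71, and their separate medians were 0.41 from 6 to 8 weeks and 0.22 from 8 to 10 weeks. For those that fell the 3 medians were -0.80, -0.61 and -0.20. These genes were chosen by the change from 6 to 10 weeks. The hair list, with no called gene, had medians of 0.69 to 8 weeks and 1.80 from there. Lce3c, for instance, had reached 9.73, 10.16 and 9.82 at 8 weeks, within its range of 10 weeks, and Col12a1 10.12, 10.20 and 10.23. Pyy lay at 7.77, 7.16 and 8.76.

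A few genes moved late. Defb4 lay at 3.44, 3.75 and 3.47 at 8 weeks, overlapping with 6 weeks, and its step to 10 weeks was 1.38 against 0.18 before. Nrg1 lay at 5.52, 5.91 and 5.97 and stepped by 0.64 against 0.35 before. Neither late step was called, which does not show that nothing changed then. Igkv9-120 had been higher at 8 weeks, at 6.86, 6.65 and 7.55, than at 10 weeks, where it lay 1.16 lower. Clec2e, a C-type lectin-like gene, lay at 4.30, 4.38 and 4.31 at 6 weeks, 4.30, 3.92 and 4.12 at 8 weeks and 5.90, 4.63 and 5.0 at 10 weeks. Its rise of 0.85 ± 0.19 between 6 and 10 weeks (adjusted p = 0.0241) was kept only without replicate 2 of 10 weeks, with a highest value of 0.137.

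Wild type skin over the same 4 weeks changed in other genes. There 696 genes (3.49%) were called, 392 higher (1.97%) and 304 lower (1.52%), a count that ran from 2 without wild type replicate 1 of 10 weeks to 1887 without wild type replicate 2 of 6 weeks. It fell to 54, 126, 153 and 451 without replicate 3 of 10 weeks and replicates 3, 1 and 4 of 6 weeks. Of the 94 genes that rose in cpdm skin 1 was also called higher in wild type and 6 lower, and of the 138 that fell 2 were also called lower and 1 higher. The change itself was compared between genotypes by an interaction test, which called 1673 genes (8.39%), 3.82% higher and 4.57% lower in cpdm. That count was 2836 without wild type replicate 2 of 6 weeks and between 623 and 947 without any 1 of 7 other arrays: replicates 1 and 2 of 6 weeks and 1 and 3 of 10 weeks in cpdm, and replicate 3 of 6 weeks and replicates 1 and 3 of 10 weeks in wild type. Of the 94 risers 76 were called in it with the same sign, and of the 138 fallers 120, none with the opposite sign. These shares rest on the same cpdm arrays as the calls and are not independent of them.

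Few of the genes named above were called in wild type skin. Sprr2e changed by -0.03 ± 0.19 in wild type skin, and its change in cpdm was larger by 1.92 ± 0.28 (adjusted p = 0.000688). Myh4 changed by 0.34 ± 0.32 in wild type, a difference between genotypes of -2.96 ± 0.47 (adjusted p = 0.00141), and Pyy by 0.88 ± 0.30, a difference of -3.17 ± 0.44 (adjusted p = 0.000688). All 7 Skint genes had a called difference between genotypes, from -2.63 to -1.22. So had all 30 hair genes, from 2.05 to 9.63, but with called falls in wild type for 26 of them. For Mmp10 the difference between genotypes, 0.58 ± 0.23, was not called (adjusted p = 0.114). Over all genes the interaction was called higher in 3.82% and lower in 4.57%. Among vascular genes it was called for 5 of 26 endothelial genes, all lower in cpdm relative to wild type. Of these, Tek, the angiopoietin receptor, lay at -1.14 (adjusted p = 0.00672). The 26 genes changed by -0.39 to 0.17 in cpdm skin, with 0 called. In wild type skin they changed by -0.01 to 0.86, with 2 called higher and 0 lower. The interaction was also called lower in 2 of 12 endothelial adhesion genes and 1 of 10 lymphatic genes. Of 23 angiogenic factor genes 2 were called higher and 2 lower, and of 17 angiogenesis inhibitor genes 1 was called higher. Jag1 at 0.95, Notch1 at 0.79 and Col18a1 at 0.86 were higher and Angpt1 at -1.04 and Adm at -1.22 lower (adjusted p = 0.0181, 0.0343, 0.0172, 0.0269 and 0.0308). These values hold the wild type change too. Adm changed by 0.06 ± 0.25 in cpdm and by 1.28 ± 0.23 in wild type skin (adjusted p = 0.947 and 0.00813). Angpt1 changed by -0.48 and 0.56 (adjusted p = 0.289 and 0.0935). The 23 angiogenic factor genes changed by -0.48 to 0.48 in cpdm and by -0.56 to 1.28 in wild type.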

How the data were processed

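RNA of whole skin was measured on an Affymetrix mouse gene array. The deposited values are log2 signals, made by the authors with RMA in Affymetrix Expression Console 1.2, per the submitters' processing notes; no source used here says whether all arrays were normalized together. The labels' protocols name a 3' labelling kit. An array has no read depth, so the number of arrays limits the precision.

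Of 35556 probe sets, 21789 had a single gene symbol, 1621 had several and 12146 had none; only the first were used, and 21698 of them matched a RefSeq gene. Each of 19938 genes was represented by its probe set with the highest mean over the 31 arrays (999 genes had more than 1). Limma 3.58.1 in R 4.3.3 fitted the means of all 10 groups of genotype and age to the 31 arrays, with lmFit and eBayes, and p-values were adjusted by Benjamini-Hochberg over all genes. The change in cpdm skin minus that in wild type skin was a contrast of the same fit. P-values measure the spread between mice. Tables were made in Python 3.11.15.

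The members and gene lists were chosen with earlier results of these data known, and the families (Sprr2, Lce, Skint and others) after their values were seen. Genes were named by rule: from called genes with separate arrays, the 15 largest rises and 15 largest falls, of which the text gives a selection; from each list, at most 6 members, taken by p; every gene of the vascular, interferon, clock and ubiquitin complex lists and of short lists (12 or fewer genes); for the interaction, 10 genes in each direction; and Sharpin. Genes outside it, such as family members and genes set beside them, were chosen after their values were seen. The settings tried instead were restricting the model to the groups in question, averaging probe sets per gene, dropping the dimmest 40% of genes, trended and robust variance, array weights, repeated quantile normalization, median-centred arrays, the replicate number as a block, an adjusted p below 0.01, and omitting each array.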

Additional observations from a re-analysis of the deposited data

Results flagged for a closer look

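In a set of 79 named genes, the change from 6 to 10 weeks differed between cpdm and wild type skin in 74, by the interaction test of the limma fit. The set held the largest rises and falls in cpdm skin, the genes with the lowest interaction p, and others picked for the text. Many were thus chosen by this same test or the same cpdm arrays, so the count is not evidence of its own. Over all genes the interaction was called in 8.39%. Other genes named above are outside this set and also had called differences, among them Eno3, Tnc, Tek and Jag1. Values are the log2 change in cpdm skin minus that in wild type skin, and all rest on the same 4 groups of arrays. For cornified envelope, keratin and antimicrobial genes these differences were Defb1 0.92, Defb14 1.61, Defb4 1.53, Gsdmc2 -1.64, Krt10 -1.11, Krt15 -1.39, Krt24 -2.35, Krt77 -1.79, Krt78 -1.70, Lce3a 1.68, Lce3c 1.84, Lce3e 1.74, Rptn 1.54, S100a9 1.50, Sprr2d 1.36, Sprr2e 1.92, Sprr2f 1.67, Sprr2g 1.89, Sprr2i 1.29 and Sprr2j-ps 2.17. For Skint genes these differences were Skint10 -2.57, Skint2 -1.90, Skint4 -1.41, Skint7 -2.63 and Skint9 -2.49. For muscle genes these differences were Actn3 -2.42, Casq1 -1.68, Mstn -3.04, Mybpc2 -2.33, Myh1 -1.50, Myh4 -2.96, Mylk4 -2.94, Pvalb -2.42 and Pygm -1.80. For growth factor, transcription factor, oxidase, lipid and retinoid genes these differences were Bbox1 -1.49, Duox1 1.12, Duoxa1 0.70, Epgn 2.11, Faah -0.97, Fosl1 1.42, Gadl1 -1.72, Hbegf 1.52, Hsd3b6 -2.04, Lrat 2.18, Nrg1 1.01, Pla2g2d -1.33, Pla2g4d 0.69, Pla2g4e 1.35, Ptgs2 1.31 and Slc27a3 -1.68. For matrix and protease genes these differences were Angptl7 -2.42, Col12a1 1.93, Lama1 -1.58, Mmp13 1.76, Pmepa1 1.87, Prss35 2.00, Serpinb6e -2.84 and Tnn 0.92. For immune and signalling genes these differences were Card14 -1.07, Ccr4 -1.35, Clca1 -1.73, Igkv9-120 1.55, Il12rb2 -2.50, Il13ra2 -1.78, Jchain 1.76 and Tnip3 -1.80. For other genes these differences were Adgrl1 0.87, Cgref1 1.05, Enah 1.2, Hscb -0.79, Paqr7 -1.95, Pyy -3.17, Snx29 -0.71 and Tmem45a2 -1.54.

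In the 4 wild type arrays of 6 weeks, 1 array lay far from the other three in 4 of 79 genes: Gsdmc2 at 4.15, Jchain at 3.62, Pla2g4e at 6.89 and Pmepa1 at 8.28. Chance flags about 1 in 20 groups in this way.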

How the results depend on the processing

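The number of genes called between 10 and 6 weeks in cpdm skin (232) was 785 when only the arrays compared were fitted, 1925 with array weights, 860 with the replicate number as a block and 89 at an adjusted p below 0.01, and 63 to 229 when 1 array was left out. Between 8 and 6 weeks (65) it was 34, 739, 0 and 29 under these settings, 32 without the dimmest 40% of genes, and 18 to 69 without 1 array. Between 10 and 8 weeks (4) it was 0 with only the arrays compared, 128 with weights, 0 with the block, 0 at 0.01, 0 without dim genes, and 0 to 5 without 1 array; repeated quantile normalization gave 6. In wild type (696) it was 126 with only the arrays compared, 3162 with weights, 3 with the block, 58 at 0.01, and 2 to 1887 without 1 array. The interaction (1673) gave 4493 with weights, 267 at 0.01, and 623 to 2836 without 1 array. Muscle genes lower at 10 weeks (12) numbered 20 with only the arrays compared, 22 with weights, 21 with the block, 7 at 0.01, and 5 to 12 without 1 array. Keratinocyte stress genes higher (7) numbered 13 with weights, 11 with the block, and 5 to 9 without 1 array. Hair keratins higher (0) numbered 25 with only the arrays compared, 28 with weights and 30 with the block. The cause was not tested.

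Same-numbered cpdm arrays of 6 and 10 weeks deviated from their group means with correlations of 0.044, 0.012 and 0.198, and wild type ones with -0.306, 0.202 and 0.116, so the numbers were not taken as pairs. None of the 79 genes of the set above changed direction in the settings in which it had a value. Without the dimmest 40% of genes only 52 had one. The call was lost in 12 with only the arrays compared, 5 with the block and 4 with trended variance, and in up to 27 without 1 array (replicate 2 of 6 weeks).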

Other observations

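Steroid and lipid genes and others outside the comparisons above also fell in cpdm skin between 6 and 10 weeks. Hsd3b6, a steroid dehydrogenase, went from 6.97, 7.50 and 7.59 to 5.65, 6.28 and 5.98 and fell by 1.38 ± 0.23 on the log2 scale (adjusted p = 0.0012). Slc27a3, of the fatty acid transport protein family, fell by 1.12 ± 0.19 (adjusted p = 0.00232), to 7.50 to 7.76, within the wild type range of 7.04 to 7.98. Tmem45a2, a transmembrane protein gene, fell by 1.36 ± 0.18 (adjusted p = 0.000115), and its arrays of 10 weeks, at 2.91 to 3.47, overlapped with the wild type range of 2.85 to 3.36. Paqr7, a membrane progestin receptor, fell by 1.72 ± 0.33 (adjusted p = 0.006), lost without replicate 2 of 6 weeks (0.0921), and lay below all wild type arrays at 10 weeks (6.17 to 6.62 against 8.43 to 9.50).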
